A study of Mus musculus with 12 samples.

Results

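Integrins are adhesion receptors made of an alpha and a beta subunit, and 10 integrin genes used by CD8+ T cells were described here in tumor-infiltrating CD8+ T cells: Itga1, Itga2, Itga4, Itgae, Itgal, Itgav, Itgb1, Itgb2, Itgb3 and Itgb7. They were chosen by name from 52636 gene identifiers, with earlier results of these data known. All 10 passed the filter on low counts that left 14173 genes for testing. The cells came from C57BL/6 A2AR eGFP reporter mice, in which a bacterial artificial chromosome places eGFP under the regulatory sequence of Adora2a, the gene of the adenosine receptor A2AR. All groups carried this reporter, and all came from female mice of 6 to 16 weeks with subcutaneous tumors raised from 500000 AT3ova cells, a mouse line of mammary carcinoma made to express ovalbumin. Tumors were taken at day 21, and CD8+ tumor-infiltrating lymphocytes were sorted into GFP+ and GFP- cells from non-treated mice or from mice given anti-PD-L1 at days 14 and 18, which blocks the ligand of the inhibitory receptor PD-1. The 4 groups (non-treated GFP-, non-treated GFP+, anti-PD-L1 GFP- and anti-PD-L1 GFP+) had 3 libraries each, 12 in all, and each library pooled cells of 3 mice.

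Each alpha subunit pairs with particular beta subunits, and the pair decides what the cell can bind. Itga4 encodes the alpha subunit of VLA-4 when paired with the Itgb1 product, which binds VCAM-1 and fibronectin, and of alpha4beta7 when paired with the Itgb7 product, which binds MAdCAM-1 and guides lymphocytes to the gut. Itgae encodes CD103, which pairs only with the Itgb7 product, binds E-cadherin and is induced by TGF-beta in many tissue-resident memory T cells. Itga1 (CD49a) and Itga2 (CD49b) encode collagen-binding partners of the Itgb1 product, and Itga1 is another common marker of resident cells. Itgal and Itgb2 together make LFA-1, the leukocyte integrin that binds ICAM-1 at the contact with target cells. Itgav and Itgb3 make a receptor for vitronectin and other proteins with an RGD motif, and Itgav also serves in integrins that activate latent TGF-beta.

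Expression was measured by QuantSeq 3′ RNA-sequencing, which reads the 3′ end of each transcript, and is given as CPM, the reads of a gene scaled to the library's total after TMM normalization. Levels are compared between libraries and not between genes. Total counts per library ranged from 11292699 to 19023900, and mitochondrial transcripts took 2.51% to 3.35% of them. The fewest reads behind a value were 50 for Itgb3 and 59 for Itga2, against at least 297 for the other 8 genes. The libraries KT13 (non-treated GFP+) and KT21 (anti-PD-L1 GFP+) stood apart, with median Spearman correlations with the other libraries of 0.941 and 0.935 against 0.967 to 0.977 for the other 10, so the calls were also made without them. Calls without them rest on 2 libraries in each GFP+ group and 3 in each GFP- group. The labelled cell type was checked by its markers, with Cd8a at 799 to 1360 CPM and Cd4 at 0.919 CPM at most. The sort was visible in Adora2a, the gene whose regulatory sequence drives the reporter. It was 2.86-fold higher in GFP+ than in GFP- cells without treatment (edgeR quasi-likelihood test, Benjamini-Hochberg adjusted p = 0.027) and 2.90-fold higher after anti-PD-L1 (adjusted p = 0.0226). In bulk samples, fewer cells that express a gene and less RNA of it per cell cannot be told apart.

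In the mouse genome (GRCm38, the build also named mm10) the 10 genes lie on 7 chromosomes. Itga4 (ENSMUSG00000027009) spans 79255426 to 79333123 on the plus strand of chromosome 2, and Itgav lies on the same strand of that chromosome from 83724397 to 83806916. Itga2 (114833081 to 114932100) and Itga1 (114953096 to 115101964) are neighbours on the minus strand of chromosome 13. Itgae (ENSMUSG00000005947, 73090583 to 73147446) and Itgb3 (104608000 to 104670476) are on the plus strand of chromosome 11. The other 4 are Itgb1 on chromosome 8 (128685654 to 128733200), Itgb2 on chromosome 10 (77530252 to 77565708), Itgal on chromosome 7 (127296260 to 127335138) and Itgb7 on the minus strand of chromosome 15 (102215995 to 102231944). Reads near the 3′ end of Itga4 could be shared with Cerkl, whose gene overlaps it on the opposite strand. Cerkl had 34 counts at most in any library against at least 405 for Itga4. Haspin lies inside Itgae on the opposite strand and reached 10.6 CPM, against at least 79.0 CPM for Itgae. Whether the authors counted by strand is not given in the sources used here, so these counts do not show if reads shared by overlapping genes were left out.

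RefSeq promoter sequences matched 6 of the 10 genes, and that of Itga4 is shown because Itga4 was the only one of the 10 that edgeR's test called between GFP+ and GFP- cells over all 12 libraries. These are the 250 bases before its annotated start, chr2:79255176-79255425 on the plus strand of GRCm38.p6, 5′ to 3′, with matches to the letters GGGCGG (GC box) and TGTGGT (RUNX, here on the reverse strand) in capitals.
Itga4: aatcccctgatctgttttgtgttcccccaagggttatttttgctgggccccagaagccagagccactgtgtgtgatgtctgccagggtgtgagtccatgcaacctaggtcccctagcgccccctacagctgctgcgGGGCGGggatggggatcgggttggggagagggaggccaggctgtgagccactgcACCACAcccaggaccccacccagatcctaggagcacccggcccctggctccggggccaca
The RUNX letters begin 60 bases before the start, and 14.0% of 32851 RefSeq promoter windows of this length hold them on either strand. The GC box letters begin 114 bases before the start and are in 32.7% of the windows. The letters TGACGTCA (CRE), TGANTCA (AP-1) and CCGGAA (ETS) were searched on both strands too and are not in this window, and they are in 1.55%, 6.75% and 12% of all windows. Among the other 5 promoters matched (Itga1, Itga2, Itgav, Itgb1 and Itgb7), that of Itgb1 holds the GC box letters and none holds another of the 5 motifs.

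The first question was how integrin genes differ between A2AR-expressing (GFP+) and GFP- cells. Itga4 was higher in GFP+ cells in both treatments. Its 3 non-treated GFP- libraries had 23.0, 33.3 and 28.7 CPM and the 3 GFP+ libraries 43.3 (KT13), 56.6 and 62.5 CPM. After anti-PD-L1 the GFP- libraries had 31.1, 34.0 and 32.5 CPM and the GFP+ libraries 50.2, 75.2 (KT21) and 48.6 CPM. All 6 GFP+ libraries thus lay above all 6 GFP- libraries, and the highest GFP- value, 34.0 CPM, was well below the lowest GFP+ value. Itga4 was the only one of the 10 genes that was higher without overlap in both treatments, a pattern shown by 0.811% of all genes tested. Averaged over treatments, Itga4 was 1.84-fold higher in GFP+ cells (log2 fold change 0.88 ± 0.15 SE, adjusted p = 0.0222 by edgeR's quasi-likelihood test), and without KT13 and KT21 1.78-fold higher (0.84 ± 0.12, adjusted p = 2.49e-04). The call was lost when any of 6 libraries (KT14, KT17, KT18, KT20, KT22 or KT24) was left out alone, at adjusted p of 0.0642 to 0.0949, with log2 fold changes of 0.77 to 0.96 over all 12 omissions. Of the 10 genes, 1 was called in this averaged comparison, against 0.31% of all genes tested. Without KT13 and KT21, Itga4 and Itgae were called, against 1.08% of all genes.

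**Figure D1:**
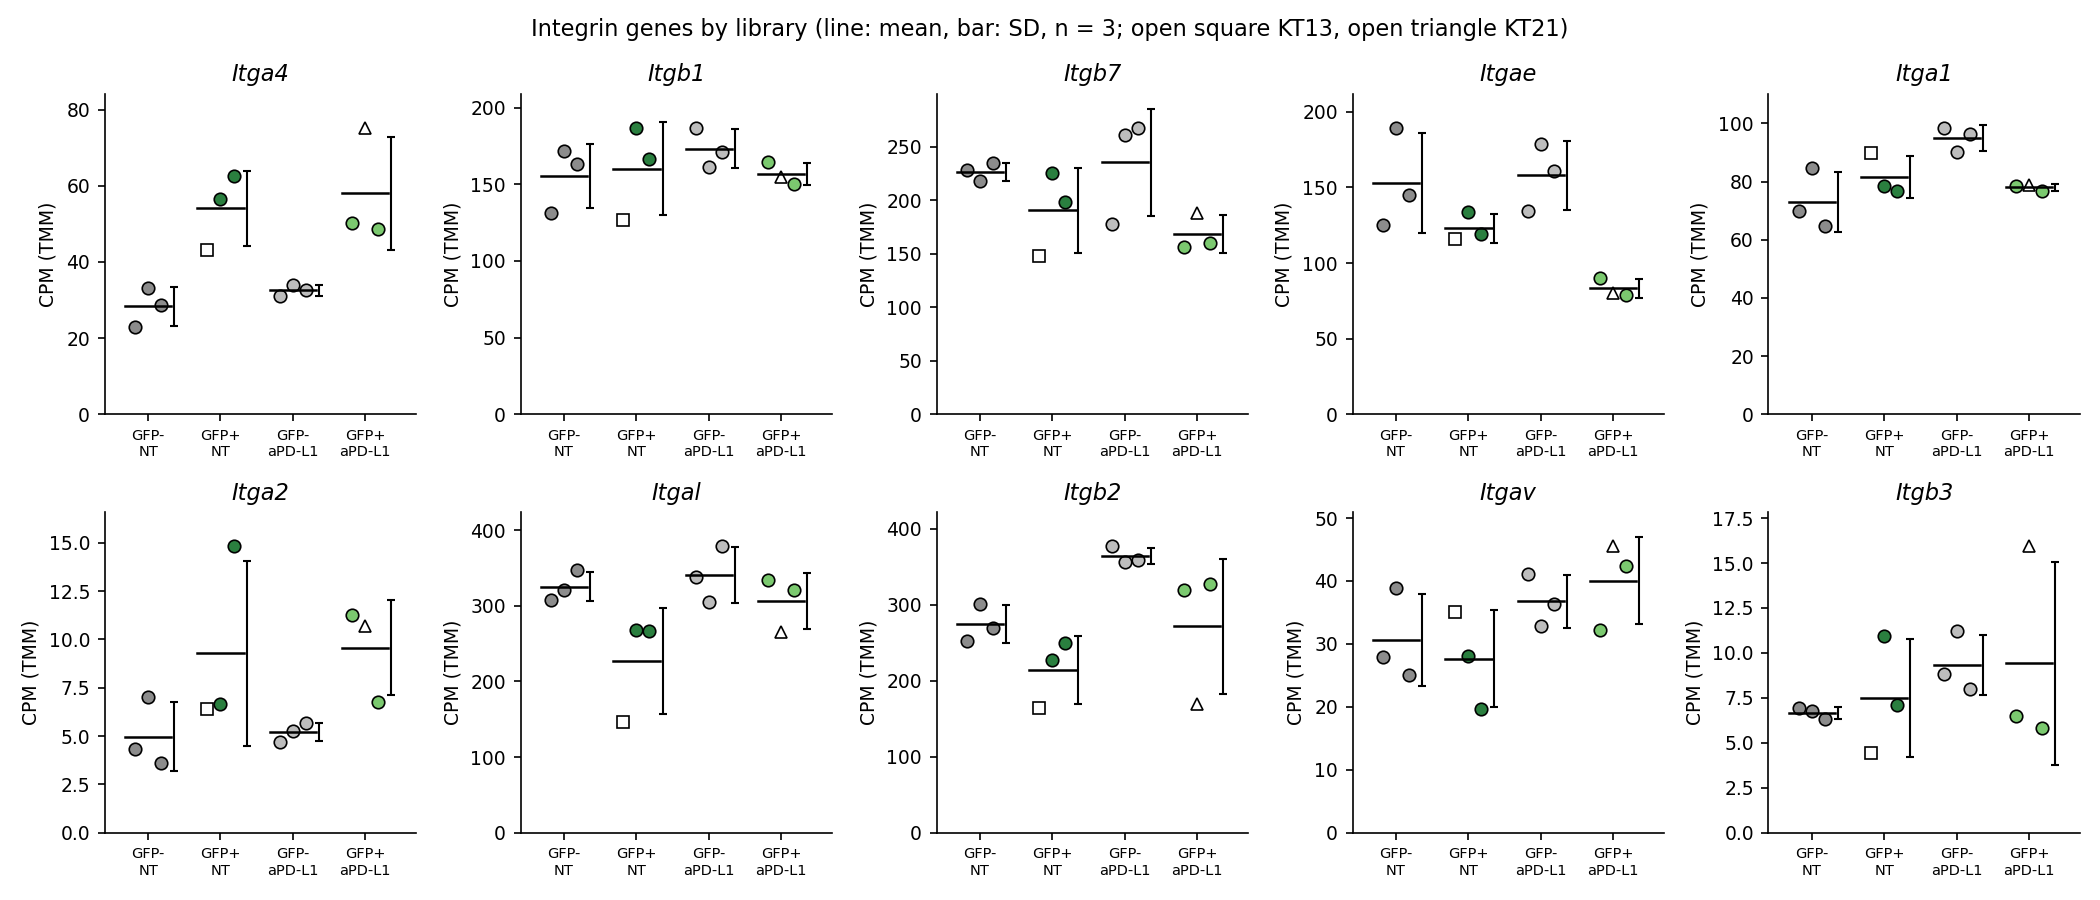
CPM of the 10 integrin genes in each of 12 libraries, by GFP and treatment (NT, non-treated; aPD-L1, anti-PD-L1). Points are libraries, lines are means and bars SD (n = 3), and open symbols are KT13 and KT21. Itga4 lies higher in all GFP+ than in all GFP- libraries, while Itgae is lowest in the 3 GFP+ libraries after anti-PD-L1, at 79.0 to 90.2 CPM.

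Within each treatment the GFP difference in Itga4 was also estimated. In non-treated mice its log2 fold change was 0.93 ± 0.21 (SE, adjusted p = 0.308) over all libraries and 1.07 ± 0.16 (adjusted p = 0.00246) without KT13 and KT21. After anti-PD-L1 it was 0.83 ± 0.21 (adjusted p = 0.435), and 0.60 ± 0.17 (adjusted p = 0.271) without them, and KT21 held the highest Itga4 value of all libraries. By edgeR's test over all libraries, 0 of the 10 genes were called in the non-treated comparison, with 3 at an unadjusted p under 0.05 (6.05% of all genes tested), and 0 after anti-PD-L1, with 4 (4.08%). The share called among all genes was 0.00706% and 0.0282%. DESeq2 and limma called Itga4 in non-treated and Itgae in anti-PD-L1 mice over all libraries. When KT13 and KT21 were left out, edgeR called Itga4 in non-treated mice (0.339% of all genes called) and Itgae after anti-PD-L1 (0.17%).

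Neither beta partner of Itga4 was called higher with it. Itgb1, the common beta1 subunit, had 132, 172 and 163 CPM in non-treated GFP- and 127 (KT13), 187 and 167 CPM in non-treated GFP+ libraries, and 187, 162 and 171 against 164, 155 (KT21) and 150 CPM after anti-PD-L1. These groups overlapped in both treatments, and the averaged log2 fold change was -0.05 with a 95% interval from -0.30 to 0.20 (0.02, and -0.17 to 0.21, without KT13 and KT21). Itgb7 had 228, 218 and 234 against 148 (KT13), 225 and 198 CPM in non-treated and 178, 261 and 267 against 156, 188 (KT21) and 160 CPM in anti-PD-L1 libraries. The group means of Itgb7 were lower in GFP+ cells in both treatments, but the libraries overlapped and the averaged difference (log2 fold change -0.37 ± 0.13 SE) did not pass the test (adjusted p = 0.482, and 0.147 without KT13 and KT21).

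The ratio of Itga4 to each partner within a library does not depend on how libraries are scaled to each other, and it separated GFP+ from GFP- cells in full. The log2 ratio of Itga4 to Itgb1 was -2.57 to -2.23 in the 6 GFP- libraries and -1.71 to -1.04 in the 6 GFP+ libraries. The GFP+ minus GFP- difference was 0.89 in non-treated and 0.94 after anti-PD-L1, against an SD within groups of 0.218, and 0.88 and 0.73 without KT13 and KT21. For Itga4 to Itgb7 the log2 ratio was -3.28 to -2.49 in GFP- and -1.98 to -1.32 in GFP+ libraries. Here the difference was 1.19 and 1.26, and 1.17 and 1.14 without KT13 and KT21, against an SD within groups of 0.243. The ratio of Itgb7 to Itgb1 itself overlapped between GFP+ and GFP- libraries after anti-PD-L1, while in non-treated mice it was 0.22 to 0.27 in GFP+ and 0.34 to 0.79 in GFP- libraries. These ratios compare 3′ reads of different genes, so their level does not give the number of one transcript per other transcript, and only differences between groups were read.

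**Figure D2:**
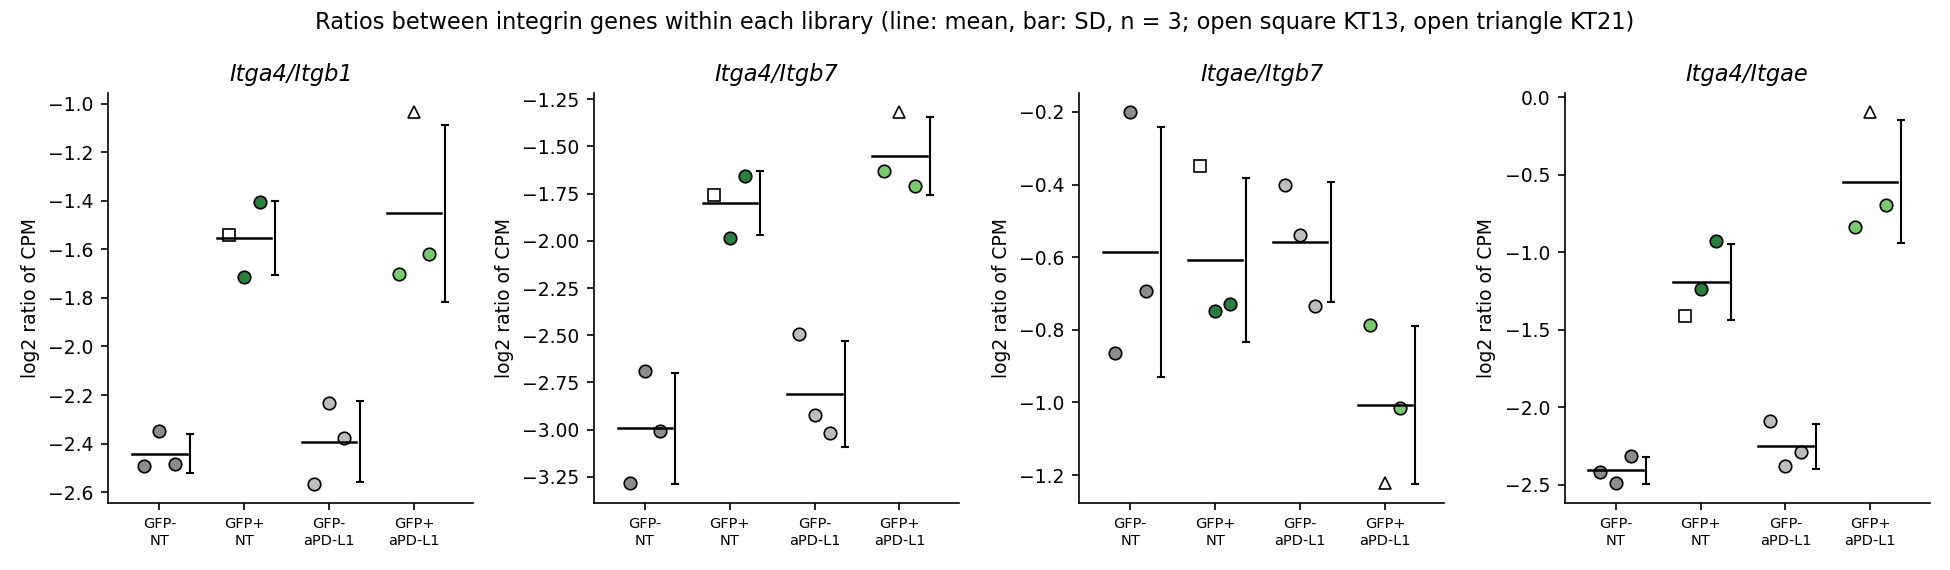
Log2 ratio of the CPM of paired integrin genes in each library, with means (lines), SD (bars, n = 3) and KT13 and KT21 as open symbols. GFP+ and GFP- libraries separate for Itga4 over Itgb1, over Itgb7 and over Itgae, while Itgae over Itgb7 overlaps in non-treated mice only.

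Itgae (CD103), the other alpha partner of Itgb7, went the opposite way from Itga4 and was lowest in GFP+ cells after anti-PD-L1. The 3 non-treated GFP- libraries had 125, 189 and 145 CPM and the 3 GFP+ libraries 116 (KT13), 134 and 119 CPM, which overlap. After anti-PD-L1 the GFP- libraries had 134, 179 and 161 CPM and the GFP+ libraries 90.2, 80.5 (KT21) and 79.0 CPM. These do not overlap, and the 3 treated GFP+ libraries also lay below all 3 non-treated GFP+ libraries. After anti-PD-L1 the difference was 0.527-fold (log2 fold change -0.92 ± 0.18 SE, edgeR adjusted p = 0.121), and without KT13 and KT21 0.536-fold (-0.90 ± 0.16, adjusted p = 0.00969). Averaged over treatments it was -0.62 ± 0.12 (adjusted p = 0.0538), and -0.59 ± 0.11 (adjusted p = 0.00628) without these libraries. Over all 12 libraries the averaged difference also passed with DESeq2 (adjusted p = 0.00126), limma (0.00853) and edgeR's robust fit (0.0299), and it did not pass with edgeR when any single library was left out (0.0559 to 0.217). The log2 ratio of Itgae to its partner Itgb7 was -0.73 to -0.40 in GFP- and -1.22 to -0.79 in GFP+ libraries after anti-PD-L1, and overlapped in non-treated mice. The log2 ratio of Itga4 to Itgae, which was chosen after the values had been seen, was -2.49 to -2.09 in GFP- and -1.41 to -0.10 in GFP+ libraries.

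Itga1 (CD49a), the other residency integrin, was not called between GFP+ and GFP- cells. Non-treated GFP- libraries had 69.9, 84.5 and 64.7 CPM and GFP+ libraries 89.8 (KT13), 78.3 and 76.8 CPM, whereas after anti-PD-L1 GFP- libraries had 98.4, 90.0 and 96.5 and GFP+ libraries 78.5, 78.9 (KT21) and 76.7 CPM. The treated groups do not overlap, but the log2 fold change of -0.28 ± 0.15 (SE) did not pass edgeR's test (adjusted p = 0.993, and 0.913 without KT13 and KT21). Itga2 (CD49b) had 4.31, 7.0 and 3.61 against 6.41 (KT13), 6.65 and 14.8 CPM in non-treated and 4.70, 5.27 and 5.66 against 11.3, 10.7 (KT21) and 6.74 CPM in anti-PD-L1 libraries. Its averaged log2 fold change was about as large as that of Itga4, 0.89 ± 0.27 (SE), but it did not pass (adjusted p = 0.328, and 0.0997 without KT13 and KT21).

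The 2 subunits of LFA-1 were lower in GFP+ cells by group means, with KT13 and KT21 low in both genes. Itgal had 308, 321 and 347 CPM in non-treated GFP- and 147 (KT13), 268 and 266 CPM in GFP+ libraries, and 338, 305 and 379 against 334, 265 (KT21) and 321 CPM after anti-PD-L1. Itgb2 had 253, 301 and 269 against 164 (KT13), 227 and 250 CPM in non-treated and 377, 357 and 359 against 319, 169 (KT21) and 327 CPM in anti-PD-L1 libraries. For both genes KT13 was the lowest of the non-treated GFP+ libraries and KT21 the lowest of the treated ones. The GFP difference averaged over treatments was -0.33 ± 0.15 on the log2 scale (SE, adjusted p = 0.581) for Itgal and -0.39 ± 0.16 (adjusted p = 0.537) for Itgb2. With KT13 and KT21 left out these were -0.17 and -0.19, and neither was called. Itgav and Itgb3, the vitronectin receptor pair, overlapped between GFP+ and GFP- cells in both treatments, with Itgav at 19.7 to 45.5 CPM and Itgb3 at 4.45 to 15.9 CPM over the 12 libraries. The highest value of both genes was that of KT21.

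Counted without a test, GFP+ libraries lay above GFP- libraries without overlap for 1 of 10 genes in non-treated mice (Itga4, against 6.19% of all genes tested) and for 2 after anti-PD-L1 (Itga2 and Itga4, against 5.31%). They lay below for 2 in non-treated (Itgal and Itgb2, against 6.63%) and for 3 after anti-PD-L1 (Itga1, Itgae and Itgb2, against 5.33%). The median log2 fold change of the 10 genes, averaged over treatments, was -0.06, beside 0.00 for all genes tested.

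**Figure D3:**
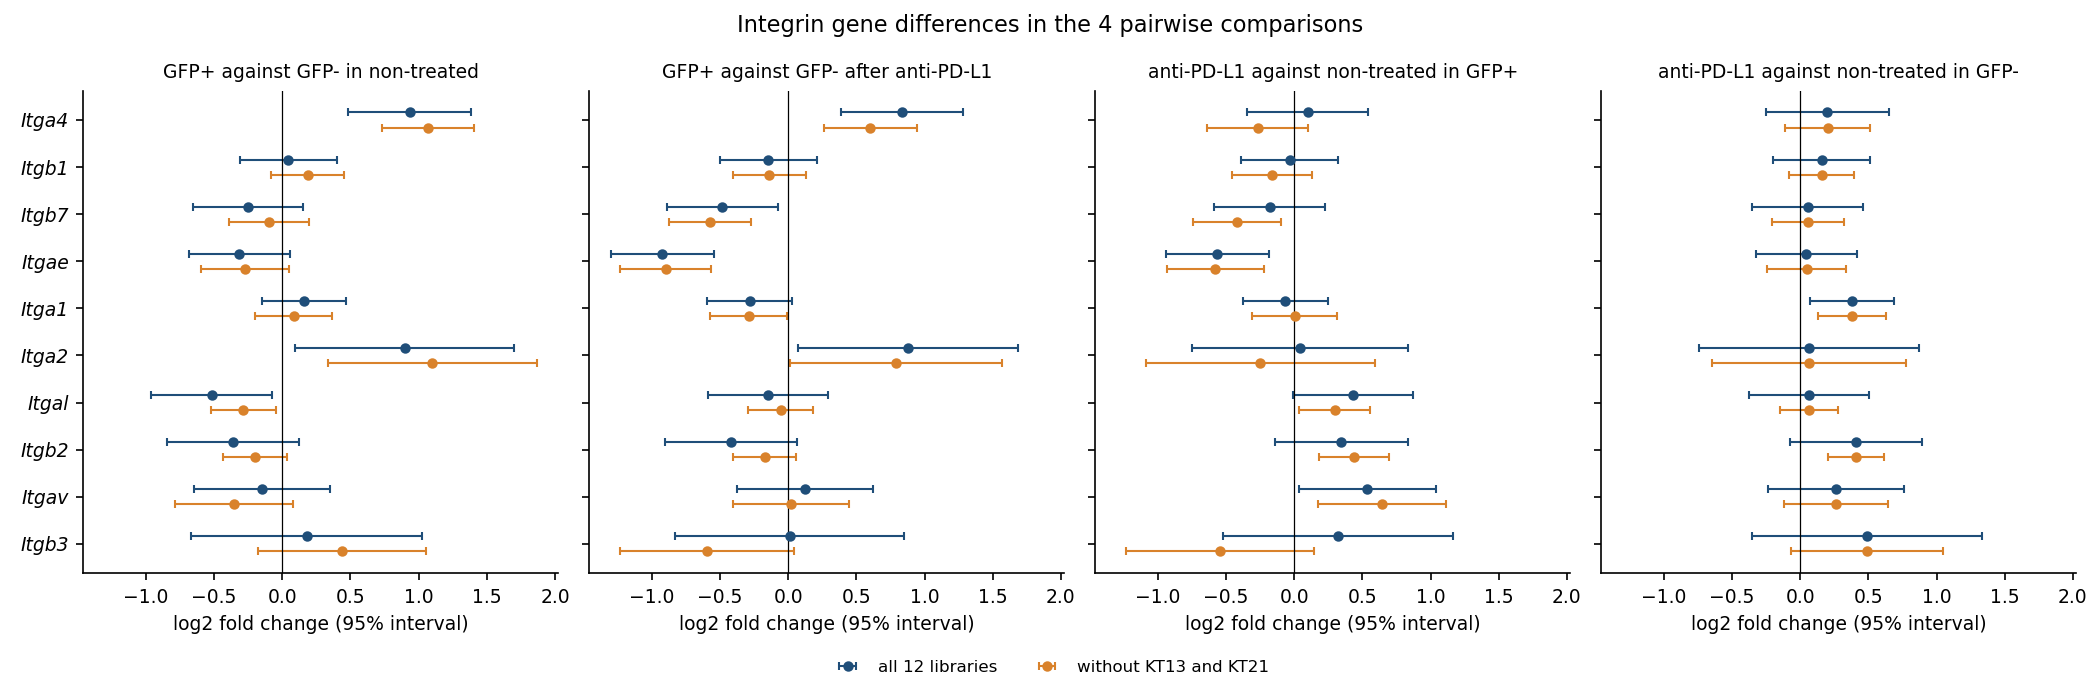
Log2 fold changes of the 10 genes with 95% intervals from edgeR's fit in the 4 pairwise comparisons, over all 12 libraries and without KT13 and KT21. The intervals of Itga4 and of Itga2 exclude 0 in both GFP comparisons and include it in both treatment comparisons. Those of Itgae exclude 0 between GFP+ and GFP- cells after anti-PD-L1 and between treatments in GFP+ cells. Some intervals of other genes, such as that of Itgal in non-treated mice, exclude 0 too. The intervals are not adjusted for the number of genes tested.

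Transcripts of other cells were checked beside these differences. The summed CPM of 3 NK cell genes (Ncr1, Klrb1c and Fcer1g) was 165 to 199 in non-treated GFP+ against 91.0 to 109 in GFP- libraries, and 136 to 204 against 62.9 to 84.3 after anti-PD-L1, so it was higher in GFP+ libraries without overlap in both treatments, as Itga4 was. By edgeR's test Klrb1c was 2.39-fold higher (adjusted p = 0.00406) and Fcer1g 2.02-fold higher (adjusted p = 0.0102) in GFP+ cells averaged over treatments. Ncr1, a receptor that defines NK cells, was 1.65-fold higher there and was not called (adjusted p = 0.528, and 0.346 without KT13 and KT21). Its level was 1.21 to 6.65 CPM in all libraries. Cd8a and Cd8b1 had lower means in GFP+ cells in both treatments and were called lower in the averaged comparison without KT13 and KT21 (log2 fold change -0.30, adjusted p = 0.0333, and -0.54, adjusted p = 0.00209). Other T cell markers were not called. Over all libraries their averaged log2 fold changes were 0.18 (Cd3d), 0.09 (Cd3e), 0.16 (Trac), -0.31 (Cd3g) and -0.17 (Cd2). Without KT13 and KT21 they were -0.02, -0.07, -0.07, -0.20 and -0.21 in the same order. The part of these transcripts in the integrin differences was not tested. All 3 B cell markers, all 3 neutrophil markers and all 3 platelet markers together stayed at or below 1.01, 2.76 and 1.93 CPM, and the sum of 2 CD4 T cell genes, nearly all of it Foxp3, was 6.89 to 24.9 CPM.

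The next question was what anti-PD-L1 did to the same genes. Over all libraries no integrin gene was called in either population. By edgeR's test 0 of 10 were called in GFP+ cells, with 2 at an unadjusted p under 0.05 (6.74% of all genes), and 0.0141% of all genes were called there. In GFP- cells 0 of 10 were called, with 1 at an unadjusted p under 0.05 (3.44% of all genes), and 0 of all genes were called. DESeq2 and limma over all libraries called 0 of the 10 in both. Without KT13 and KT21, edgeR still called 0 in GFP+ cells (0.563% of all genes called) and 0 in GFP- cells (0.373%), with 5 and 2 at an unadjusted p under 0.05 (8.54% and 7.22% of all genes), while DESeq2 without these libraries called Itgb2 in each.

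Itgb2, the beta subunit of LFA-1, was the integrin gene called for treatment in the smaller set of libraries. In GFP- cells its 3 treated libraries, at 357 to 377 CPM, lay above the 3 non-treated ones, at 253 to 301 CPM, a 1.33-fold difference (log2 fold change 0.41 ± 0.23 SE). In GFP+ cells the treated libraries KT19 and KT23 had 319 and 327 CPM against 164 to 250 CPM without treatment, but KT21 had 169 CPM. Averaged over GFP, Itgb2 was 1.30-fold higher after anti-PD-L1 over all libraries (log2 fold change 0.38 ± 0.16, adjusted p = 0.59), and 1.34-fold higher without KT13 and KT21 (0.42 ± 0.08, adjusted p = 0.00405). Averaged over GFP, 0 of the 10 genes were called by edgeR over all libraries, with 2 at an unadjusted p under 0.05 (7.67% of all genes) and 0.395% of all genes called, and DESeq2 and limma also called 0. Of the 10 genes, 1 (Itgb2) was called without KT13 and KT21, against 1.36% of all genes.

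Its LFA-1 partner Itgal had an averaged log2 fold change of 0.25 ± 0.15 (SE) and was not called (adjusted p = 0.79, and 0.389 without KT13 and KT21). For Itgav it was 0.40 ± 0.17 (adjusted p = 0.57), and 0.45 ± 0.15 (adjusted p = 0.155) without KT13 and KT21. In GFP- cells the treated libraries lay above the non-treated ones without overlap for 3 of 10 genes (Itga1, Itgb2 and Itgb3, against 6.08% of all genes tested), with Itga1 at 90.0 to 98.4 against 64.7 to 84.5 CPM. In GFP+ cells Itgae alone lay lower without overlap after treatment (against 5.67% of all genes tested). That difference was 0.677-fold (log2 fold change -0.56 ± 0.18 SE, edgeR adjusted p = 0.455, and 0.194 without KT13 and KT21). In GFP- cells Itgae had 125 to 189 CPM without and 134 to 179 CPM with treatment. Itga4 was not distinguishable between treatments, with 95% intervals of the log2 fold change from -0.35 to 0.54 in GFP+ and from -0.25 to 0.65 in GFP- cells.

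Several macrophage transcripts moved with treatment too. The summed CPM of 10 macrophage genes was 152 to 280 in the 6 non-treated and 76.9 to 166 in the 6 anti-PD-L1 libraries, and macrophages also express Itgb2. Averaged over GFP, Lyz2 was 0.355-fold (edgeR adjusted p = 0.0461) after anti-PD-L1, and C1qa was called lower as well (adjusted p = 0.0317). Without KT13 and KT21 Csf1r and Apoe were also called lower. Cd14, C1qb and C1qc were lower but not called. Cd68 and Adgre1, of the same list, were not called either, with averaged log2 fold changes of -0.13 and -0.25 over all libraries. In GFP+ cells these were 0.13 and 0.55. The fibroblast gene Dcn was called lower without KT13 and KT21 too (adjusted p = 0.0129). Cd8a (log2 fold change 0.38, adjusted p = 0.00301) and Cd3g (0.32, adjusted p = 0.0428), genes of the T cells themselves, were called higher there. Sums of dendritic cell, tumor and epithelial, fibroblast and endothelial genes were 63.0 to 167, 8.20 to 32, 0.214 to 64.3 and 9.55 to 24.5 CPM over all libraries. The part of these transcripts in the treatment differences was not tested.

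An interaction term asked if GFP+ and GFP- cells differed by another amount after treatment. By edgeR 0 of the 10 genes and 0 of all genes were called, with and without KT13 and KT21. At an unadjusted p under 0.05 there were 2 of the 10 over all libraries (2.08% of all genes) and 3 (Itgae, Itgb3 and Itgb7) without KT13 and KT21 (4.29%), and DESeq2 and limma called 0. The 2 over all libraries were Itgae (log2 interaction -0.61, 95% interval -1.14 to -0.08) and Itga1 (-0.44, 95% interval -0.88 to -0.0048), both with an adjusted p of 1. The larger gap of Itgae after anti-PD-L1 than without it did not pass the test over all genes.

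Some integrin genes varied together over libraries. Over the 12 libraries, which share their groups and depth, Pearson's r of log2(CPM + 0.5) was 0.84 between Itga4 and Itga2, 0.73 between Itgae and its partner Itgb7, and 0.79 between the LFA-1 subunits Itgal and Itgb2. Within the 6 GFP+ and the 6 GFP- libraries r was 0.59 and 0.62 for Itga4 with Itga2, 0.47 and 0.42 for Itgae with Itgb7, and 0.79 and 0.30 for Itgal with Itgb2. Over the 12 libraries Itga4 and its partners varied less alike, with r of 0.13 for Itgb1 and -0.43 for Itgb7. Without KT13 and KT21 these were 0.38 and -0.45. Itga4 differs between GFP+ and GFP- cells, and r within GFP+ or GFP- libraries was not computed for these pairs.

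Among 7793 genes of at least 10 CPM on average, those most like Itga4 (by the lower r with and without KT13 and KT21) were Adora2a (0.92 over 12 libraries), St6galnac4 (0.90), Spry2 (0.87), Sptbn1 (0.89) and Trib2 (0.85). Adora2a, whose regulatory sequence drives the reporter, had 19.7 to 24.3 and 26.0 to 34.6 CPM in the GFP- groups and 60.2 to 67.3 and 66.3 to 111 CPM in the GFP+ groups. The sort fixed this split of Adora2a, and within the 6 GFP+ and the 6 GFP- libraries r with Itga4 was 0.45 and 0.75. Those most like Itgae were Lta (0.97), which encodes lymphotoxin alpha, and Slco3a1 (0.93), Inpp4b (0.87), Rxra (0.82) and Ptgfrn (0.86). Lta had 31.9 to 47.6 CPM in non-treated and 32 to 39.3 CPM in treated GFP- cells, 29.8 to 31.8 CPM in non-treated and 18.8 to 21.5 CPM in treated GFP+ cells. For Itgae and Lta r was also high within the GFP+ libraries (r = 0.97) and within the GFP- libraries (r = 0.89).

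**Figure D4:**
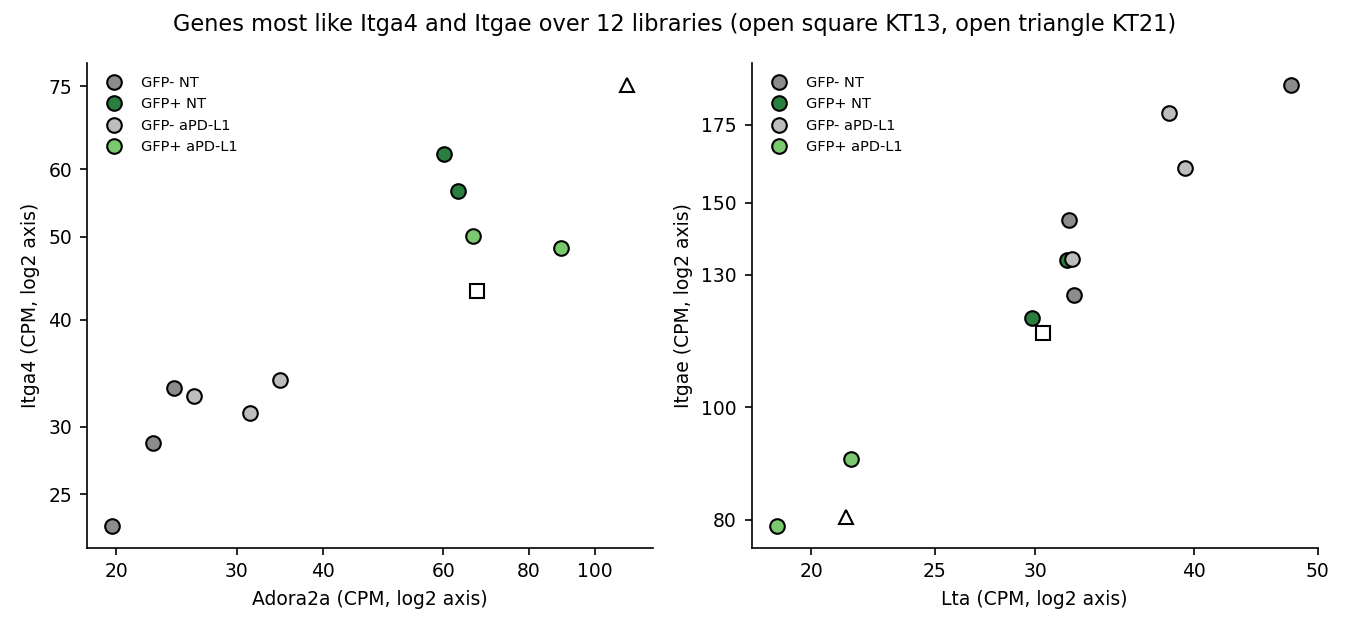
CPM of Itga4 against Adora2a and of Itgae against Lta in 12 libraries, on log2 axes. Points are libraries coloured by group, with KT13 and KT21 open. The left panel falls into a GFP- and a GFP+ cloud, while in the right panel libraries of all groups lie along 1 line with r = 0.97.

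Other genes of integrin biology were listed by name and read in the same way. Of 17 other integrin subunits 10 passed the filter and 0 were called in any comparison by edgeR. The smallest adjusted p were those of Itgad and Itgb5. Itgad had at most 0.362 CPM in GFP- and 0.455 to 2.45 CPM in GFP+ libraries. It passed the filter on low counts only through GFP+ libraries, where it is higher, so no GFP difference is read from its test. Itgb5 had adjusted p of 0.346 for treatment averaged over GFP, and 0.261 without KT13 and KT21. Among 18 integrin ligands 12 passed and 0 were called. Cdh1, the E-cadherin gene and ligand of CD103, was at 177.8 to 272.4 CPM in non-treated and 126.3 to 178.2 CPM in treated GFP+ libraries (log2 fold change -0.57, adjusted p = 0.606, and -0.73, adjusted p = 0.111, without KT13 and KT21), and the fibronectin gene Fn1 stayed at or below 8.48 CPM. Of 23 genes that activate integrins from inside the cell (talin, kindlins, Rap1 and their regulators) 21 passed over all libraries and 0 were called, with Rasgrp2, an activator of Rap1, nearest for treatment averaged over GFP (adjusted p = 0.679, and 0.102 without KT13 and KT21) and the adaptor Fyb next for GFP (0.605 and 0.214). The median log2 fold change of the inside-out list between GFP+ and GFP- cells, averaged over treatments, was -0.09, beside 0.00 for all genes tested.

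Of 25 genes of signaling from integrins 24 passed, and 2 were called, both higher after anti-PD-L1 averaged over GFP and without KT13 and KT21, where 1.36% of all genes were called. These were the adaptors Lims1 (log2 fold change 0.53, adjusted p = 0.0138) and Nedd9 (0.38, adjusted p = 0.0272), which had adjusted p of 0.721 and 0.552 over all libraries. Of 12 tetraspanins and associated membrane proteins, Cd9 was higher in GFP+ cells (log2 fold change 0.72, adjusted p = 0.0264) and Cd63 lower after anti-PD-L1 (0.499-fold, adjusted p = 0.0189), again without KT13 and KT21, with adjusted p of 0.139 and 0.0978 over all libraries, in comparisons where 1.08% and 1.36% of all genes were called. Cd9 had at least 27.2 CPM in non-treated GFP+ against 10.6 to 20.2 CPM in GFP- libraries. Cd63 is also abundant in macrophages, several of whose transcripts fell with treatment, and their part in it was not tested.

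Among 20 genes of residency and homing, all of which passed, the calls were with treatment and not with GFP. Averaged over GFP, Klf2, a factor that keeps homing and egress genes on, was 0.514-fold after anti-PD-L1 (log2 fold change -0.96 ± 0.17 SE, adjusted p = 0.0239), and Prdm1, which encodes the residency factor Blimp-1, was 2.06-fold higher (1.05 ± 0.21, adjusted p = 0.0485). These 2 of 20 stand beside 0.395% of all genes called, and without KT13 and KT21 their adjusted p were 8.29e-04 and 8.79e-04. Klf2 had 278 to 599 CPM in the 6 non-treated and 183 to 255 CPM in the 6 treated libraries. The share of all genes that separate by treatment in this way was not counted. Cxcr6, a chemokine receptor of resident and tumor CD8+ T cells, was also called higher without KT13 and KT21 (0.54 ± 0.10, adjusted p = 0.00406, against 0.467 over all libraries), which made 3 of 20 beside 1.36% of all genes.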

How the data were processed

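The 12 libraries were grouped by their labels, and the labels give no pairing or batch. The authors deposited raw read counts per Ensembl gene. Reads were single-end, of 75 bp; alignment used HISAT2 on mm10 and featureCounts gave the counts. The submitters' processing notes name cutadapt 1.7 and Subread 1.6.4. Strand and multiple matches are not given in the sources used here. Symbols from GENCODE vM21 matched 52403 of 52636 identifiers. Counts were normalized by TMM, filtered by filterByExpr and tested by edgeR 4.0.16 (quasi-likelihood, 1 fit over 4 groups, R 4.3.3). P-values were adjusted by Benjamini-Hochberg over all genes tested and called under 0.05. Without KT13 and KT21, 14747 genes were tested. DESeq2 1.42.0 and limma 3.58.1 (voom) were alternatives, and the scripts were tested on simulated data. P-values measure the spread between libraries, each a pool of mice. Whether GFP+ and GFP- libraries came from the same mice is not given, and all libraries were fitted as independent. Within groups no library was a copy of another (chi-square per degree of freedom at least 12.6). The genes, lists and tests were chosen with earlier results of these data known. Beyond the 10 integrin genes and Adora2a, list genes were named if called in any comparison, otherwise the 2 with the smallest adjusted p, and for Itga4 and Itgae the 5 most alike genes.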

Additional observations from a re-analysis of the deposited data

How the results depend on the processing

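The number of the 10 integrin genes called in each comparison was recomputed with RLE and upper-quartile normalization, DESeq2, limma voom, a robust fit, 2 other filters, only the groups compared, and fewer libraries. Between GFP+ and GFP- cells averaged over treatments, 1 gene was called; it was 2 with DESeq2, limma, the robust fit, at least 10 counts in every library, no filter, and without KT13 and KT21 by either tool, and 0 to 1 with each library left out in turn. For the same comparison within non-treated mice 0 became 1 with DESeq2, limma, no filter and without KT13 and KT21 by either tool. After anti-PD-L1 0 became 1 with DESeq2, limma, no filter and without KT13 and KT21 by edgeR, and 2 by DESeq2, which added Itgb7. For treatment averaged over GFP 0 became 1 (Itgb2) without KT13 and KT21 by either tool, and in GFP+ and in GFP- cells 0 became 1 only with DESeq2 without them. The interaction called 0 of the 10 in all settings that can test it, and over all genes 0 by each setting with all 12 libraries except no filter, with 10. Itga4 averaged over treatments was called in 9 of 9 alternatives other than leaving out single libraries, and Itgae in 7 of 9, with 6 and 0 of 12 when single libraries were left out. Of 70 integrin gene by comparison results, 25 reversed in sign under at least 1 setting, and 0 of these were called in any setting. Not all were small: Itgb3 between treatments in GFP+ cells went from 0.32 to as low as -0.56, Itgb3 between GFP+ and GFP- cells after anti-PD-L1 from 0.01 to -0.60, and Itga2 between treatments in GFP+ cells from 0.04 to -0.26. Itga4 between treatments in GFP+ cells was -0.19 with limma, -0.27 and -0.28 without KT13 and KT21 by edgeR and DESeq2, and -0.13 to 0.23 with each library left out in turn (below 0 without KT21 or KT13), and Itgb1 between GFP+ and GFP- cells averaged over treatments was 0.023 without both by edgeR and DESeq2, and -0.11 to 0.019 with each library left out (above 0 without KT13). Over all genes, calls between GFP+ and GFP- cells averaged over treatments were 44, against 158 with DESeq2, 126 with limma, 204 with no filter and 159 without KT13 and KT21. For treatment averaged over GFP they were 56, against 181, 132, 223 and 201. No paired analysis was possible because the library codes are unique and the labels pair no samples. With 3 libraries a group, each pooled from 3 mice, and 50 to 223 reads for Itga2 and Itgb3, differences of these genes below the intervals given could not be detected.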
